A study of Mus musculus with 6 samples.

Results

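The AFF family and the super elongation complex were examined in RNA-seq of mouse embryonic fibroblasts (MEFs), with 10 members chosen by gene symbol. The members were *Aff1*, *Aff2*, *Aff3*, *Aff4*, *Ell*, *Ell2*, *Mllt1*, *Mllt3*, *Cdk9* and *Ccnt1*, out of 17092 genes in the deposited table, and all 10 passed the filter on low counts. MEFs from wild-type (WT) mice were compared with MEFs from *Aff3ir-ORF2*-/- mice, with 3 libraries of each genotype, and the labels name no treatment. *Aff3ir* is a transcript described by the study as lying in the sixth intron of *Aff3*, and *Aff3ir-ORF2* is a protein it encodes. The comparison addresses how expression of *Aff3*, the host gene, and of its family and partners differed between the genotypes. The knockout was global, so every cell type of the embryo lacked the sequence, and it was made by injecting Cas9 with several guide RNAs before heterozygotes were intercrossed. The embryos' age, and whether libraries of one genotype came from separate embryos or cultures, are not given in the sources used here. The p-values therefore measure the spread between these libraries, which may be technical. *Aff3ir* itself was not analysed here, so the genotype labels were not checked against the targeted transcript.

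AFF proteins are long, flexible nuclear scaffolds that hold the other subunits of the super elongation complex together. The complex joins P-TEFb, the kinase made of CDK9 and a cyclin T that releases paused RNA polymerase II, to an ELL protein that stimulates elongation and to ENL or AF9, readers of acylated histones. AFF4 and AFF1 are the scaffolds usually found in the complex, AFF2 and AFF3 take part in related forms, and several of these genes were first known as fusion partners of MLL1 in leukaemia.

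Sequences are shown for *Aff3* and *Ell2*, the members with a call at 1.5-fold. The study's RT-PCR primers for *Aff3* are given because they show which stretch of the gene that assay read. The primers for *Aff3ir* were not located here.
Aff3 forward primer: tctgtgggctccatcaac
Aff3 reverse primer: gacctcatcgctgtccttt
In GRCm38 the forward primer matched chr1:38209838-38209855 and the reverse primer chr1:38209730-38209748, for a gene on the minus strand and a product of 126 bases. Both lie in exon 13 of the 23 exons of the longest GENCODE M21 transcript, of 6010 bases, and in exon 12 of the 22 exons of another, of 5857 bases. They matched 2 of the 6 annotated *Aff3* transcripts, and their exon lies downstream of the sixth intron in both. The 250 bases before the *Aff3* start in RefSeq (GRCm38.p6, chr1:38627245-38627494, minus strand) are shown because *Aff3* had the largest difference of the members, with matches to the GC box GGGCGG in capitals.
Aff3 window before the RefSeq start: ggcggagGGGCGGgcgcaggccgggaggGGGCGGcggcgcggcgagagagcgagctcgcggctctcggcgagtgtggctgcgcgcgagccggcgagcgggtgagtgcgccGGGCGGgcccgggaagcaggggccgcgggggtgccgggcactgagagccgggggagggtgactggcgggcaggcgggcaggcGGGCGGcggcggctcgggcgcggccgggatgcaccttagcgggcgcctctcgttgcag
This window had 82% G and C and 4 GC boxes, beginning 243, 222, 140 and 58 bases before the start, and none of the other motifs searched. It lies inside the span that GENCODE M21 gives the gene and overlaps no annotated exon, so other *Aff3* transcripts start upstream of it. For *Ell2*, the member called higher, 30 bases around the one match to the CRE motif TGACGTCA are shown (GRCm38.p6, chr13:75707275-75707304, plus strand), with the motif in capitals.
Ell2 CRE site: aagacgagacaTGACGTCAgataagattaa
The motif begins 198 bases before the RefSeq start and falls in an exon of an annotated *Ell2* transcript. In all, 5 motifs were searched on both strands over all 32851 RefSeq windows of 250 bases, overlapping matches were each counted, and no motif contains another. TATAAA was found in 12.4% of all windows and in 0 of the 12 member windows, GGGCGG in 32.7% and in 10, CCAAT in 33.8% and in 5, CACGTG in 6.02% and in 1, and TGACGTCA in 1.55% and in 1. A match is a description of the letters in the window and not a bound site.

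Total counts per library were 17435133 to 17726034 in WT and 18209421 to 18252330 in *Aff3ir-ORF2*-/- MEFs, and the common biological coefficient of variation was 0.0185 and 0.0996. The *Aff3ir-ORF2*-/- libraries thus varied more among themselves than the WT libraries did. All 10 fibroblast markers were above 3 counts in every library, with summed CPM (counts scaled by TMM to a common library size) of 27948 to 28043 in WT and 24295 to 30487 in *Aff3ir-ORF2*-/- MEFs. Of these 10, 3 were called higher and 0 lower, against 14.3% and 7.32% of all tested genes. *Col1a1* was lower in *Aff3ir-ORF2*-/- MEFs without overlap, at a mean of 5246 CPM against 7366 in WT, but was not called. Macrophage markers differed far more, since all 10 were called higher and their summed CPM was 19.4 to 23.0 in WT and 1252 to 2118 in *Aff3ir-ORF2*-/- MEFs. *Ptprc*, the pan-leukocyte CD45 gene, had 2, 11 and 8 counts in WT and 298, 375 and 479 counts in *Aff3ir-ORF2*-/- MEFs. *Lyz2*, a myeloid lysozyme, had 162, 199 and 182 against 14471, 20237 and 25195 counts. The macrophage markers moved with genotype in all 6 libraries, so they stand beside every difference below, and their part in it was not tested. In bulk RNA, a changed share of cells of one type and a changed amount of RNA per cell cannot be told apart. Of the 8 B and T cell markers 3 are in the table, at a summed CPM of at most 0.343, and *Cd4* was at 0 in all WT libraries. Summed CPM of the endothelial list was 6.79 to 7.28 in WT and 7.73 to 14.0 in *Aff3ir-ORF2*-/- MEFs, of the epithelial list 4.06 to 4.87 and 3.33 to 4.56, and of the neural list 41.5 to 46.1 and 20.0 to 25.2. Of 3 tested endothelial markers 1 was called higher and 1 lower, and of 3 tested neural markers 1 higher and 2 lower.

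*Ell2* rose and *Aff3* fell by more than 1.5-fold in *Aff3ir-ORF2*-/- MEFs, while 4 other members changed by less. Of the 10 members, 1 was called higher and 1 lower, a call being an adjusted p under 0.05 (edgeR quasi-likelihood test, Benjamini-Hochberg over all 13075 tested genes) with a fold of at least 1.5. Over all tested genes 14.3% were called higher, 7.32% lower and 21.6% in either direction, and the members' 20.0% was near that background. At an adjusted p under 0.05 with any fold, 2 members were higher and 4 lower, against 29.4% and 27.6% of all tested genes. In both directions together this was 60.0% of the members and 56.9% of all tested genes. In 8 members the CPM of the genotypes did not overlap, 3 of them higher and 5 lower in *Aff3ir-ORF2*-/- MEFs, against 66.0% of all tested genes. None of these shares sets the members apart from the rest of the transcriptome. The median log2 fold change was -0.11 over the members and 0.01 over all tested genes.

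**Figure D1:**
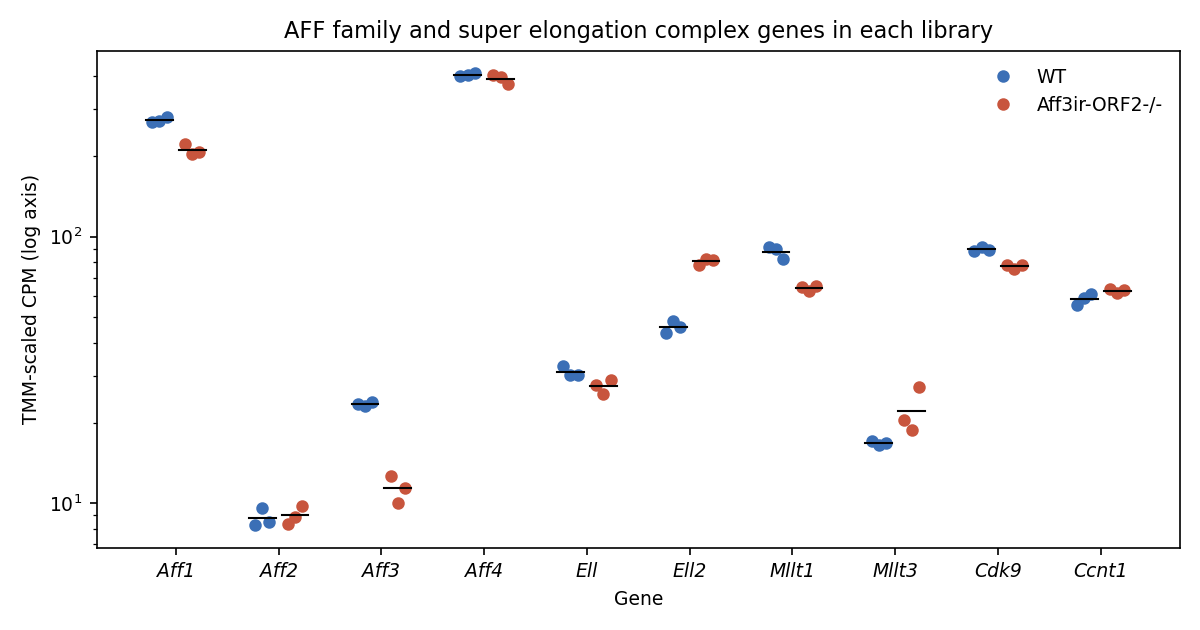
TMM-scaled CPM (log axis) of the 10 members in the 3 WT libraries (blue) and the 3 *Aff3ir-ORF2*-/- libraries (red), with the mean of each genotype as a bar. *Aff3* sits near 23.5 CPM in WT and 11.3 in *Aff3ir-ORF2*-/- MEFs, and *Ell2* near 45.8 and 80.6, while the points of *Aff2* and *Aff4* overlap.

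Among the AFF scaffolds, *Aff3*, the host gene of *Aff3ir*, fell 2.08-fold, *Aff1* fell 1.29-fold, and *Aff2* and *Aff4* gave no call. *Aff3* (gene ID 16764), a nuclear protein best known from lymphoid tissue and as an MLL1 fusion partner, had 406, 406 and 418 counts in WT and 229, 186 and 209 counts in *Aff3ir-ORF2*-/- MEFs. All 3 *Aff3ir-ORF2*-/- libraries lay below all WT libraries, with no overlap. On the CPM scale this was 23.5 ± 0.416 (SD, n = 3) against 11.3 ± 1.30 (SD, n = 3). The log2 fold change was -1.06 with a standard error of 0.09 (95% interval -1.26 to -0.85, adjusted p = 2.42e-05). Annotated genes on the opposite strand within *Aff3* number 4, and their exons share 0 bases with its exons. Whether the counting used strand, or gave reads from the sixth intron to *Aff3*, is not given in the sources used here.

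*Aff1* (gene ID 17355), which encodes AF4, a scaffold that can take the place of AFF4 in the complex, had 4633, 4781 and 4897 counts in WT and 4062, 3823 and 3812 counts in *Aff3ir-ORF2*-/- MEFs. The genotypes did not overlap, and the lowest levels were in *Aff3ir-ORF2*-/- libraries 2 and 3. CPM fell from 274 ± 5.98 to 212 ± 9.66 (SD, n = 3 each), and the log2 fold change was -0.37 with a standard error of 0.05 (adjusted p = 0.000215). At 1.29-fold this passed the test but not the 1.5-fold threshold. *Aff4* (gene ID 93736), the main scaffold of the complex, had 6882, 7090 and 7161 counts in WT and 7363, 7410 and 6864 counts in *Aff3ir-ORF2*-/- MEFs. In CPM its genotypes overlapped, at 404 ± 5.42 and 392 ± 15.9 (SD, n = 3 each). The log2 fold change of *Aff4* was -0.04 (95% interval -0.15 to 0.06, adjusted p = 0.425), an interval that does not reach 1.5-fold in either direction. *Aff2* (gene ID 14266), the gene silenced in FRAXE intellectual disability, had 142, 168 and 148 counts in WT and 152, 165 and 179 counts in the knockout. Its genotypes overlapped at 8.75 ± 0.704 and 8.99 ± 0.713 CPM (SD, n = 3 each), and its log2 fold change was 0.04 (95% interval -0.21 to 0.28, adjusted p = 0.782). The sign of that value turned with the libraries used.

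Of the ELL elongation factors, *Ell2* rose, *Ell* did not pass the test and *Ell3* was not tested. *Ell2* (gene ID 192657), the ELL form known for its high level in plasma cells and its rapid turnover, had 748, 847 and 802 counts in WT and 1418, 1537 and 1496 counts in *Aff3ir-ORF2*-/- MEFs. Every *Aff3ir-ORF2*-/- library was well above every WT library. CPM rose from 45.8 ± 2.40 to 80.6 ± 2.44 (SD, n = 3 each), which is 1.76-fold, with a log2 fold change of 0.82 and a standard error of 0.05 (95% interval 0.69 to 0.94, adjusted p = 7.33e-06). Within *Ell2*, 94 exon bases are shared with the antisense gene 1700037F03Rik and 130 with the small nucleolar RNA Gm23127, so a part of its reads could belong to those. *Ell* (gene ID 13716), the founding member of the family and an MLL1 fusion partner, had 563, 530 and 527 counts in WT and 507, 478 and 531 counts in *Aff3ir-ORF2*-/- MEFs. In CPM the genotypes did not overlap, at 31.0 ± 1.44 and 27.5 ± 1.67 (SD, n = 3 each). Its log2 fold change of -0.17 missed the threshold (95% interval -0.33 to -0.02, adjusted p = 0.0529), and it passed without *Aff3ir-ORF2*-/- library 3 (adjusted p = 0.0346) and without the filter on low counts (adjusted p = 0.0491). *Ell3*, the remaining ELL gene, had between 0 and 4 counts per library and was not tested.

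Of the acyl-lysine readers, *Mllt1* fell and *Mllt3* rose. *Mllt1* (gene ID 64144), which encodes ENL, had 1571, 1577 and 1444 counts in WT and 1177, 1165 and 1196 counts in *Aff3ir-ORF2*-/- MEFs. No *Aff3ir-ORF2*-/- library reached the lowest WT library. CPM fell from 87.8 ± 4.53 to 64.1 ± 1.40 (SD, n = 3 each), and the log2 fold change was -0.45 with a standard error of 0.05 (adjusted p = 0.000112), which is 1.37-fold. *Mllt3* (gene ID 70122), which encodes AF9, had 293, 290 and 293 counts in WT and 372, 350 and 500 counts in *Aff3ir-ORF2*-/- MEFs. The WT libraries were nearly equal, and *Aff3ir-ORF2*-/- library 3 stood above the other two. The macrophage markers *Ptprc* and *Lyz2* were also highest in that library. Between *Aff3ir-ORF2*-/- libraries 1 and 2, both markers were higher in library 2 and *Mllt3* was higher in library 1. A relation between the markers and *Mllt3* was not tested. CPM was 16.8 ± 0.249 in WT and 22.2 ± 4.49 in *Aff3ir-ORF2*-/- MEFs (SD, n = 3 each), and the log2 fold change of 0.40 passed the test (standard error 0.13, adjusted p = 0.0260). Without library 3 of *Aff3ir-ORF2*-/- the value of *Mllt3* was 0.22 (adjusted p = 0.0363), and without WT library 1, 2 or 3 it was 0.41, 0.39 and 0.40 and no longer passed the adjusted p (0.0647, 0.0783 and 0.0729).

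Of the P-TEFb subunits, *Cdk9* fell slightly and *Ccnt1* did not pass the test. *Cdk9* (gene ID 107951), the kinase that phosphorylates the polymerase and its pausing factors, had 1519, 1607 and 1553 counts in WT and 1418, 1410 and 1438 counts in *Aff3ir-ORF2*-/- MEFs. Its genotypes did not overlap, and CPM fell from 89.5 ± 1.73 to 77.3 ± 1.43 (SD, n = 3 each). This was a log2 fold change of -0.21 with a standard error of 0.04 (adjusted p = 0.00262), or 1.16-fold. *Ccnt1* (gene ID 12455), the cyclin T1 gene, had 951, 1036 and 1060 counts in WT and 1152, 1148 and 1154 counts in *Aff3ir-ORF2*-/- MEFs. CPM was 58.3 ± 2.82 and 62.6 ± 0.860 (SD, n = 3 each), with no overlap, although the gap between the genotypes was smaller than the range of the WT libraries. The log2 fold change of 0.10 did not pass (95% interval -0.01 to 0.22, adjusted p = 0.112), and it passed when libraries were scaled by upper quartile (adjusted p = 0.0366) or by total counts (adjusted p = 0.0479). *Ccnt1* shares 695 exon bases with the antisense gene 9330020H09Rik, whose reads cannot be told apart from its own without strand.

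**Figure D2:**
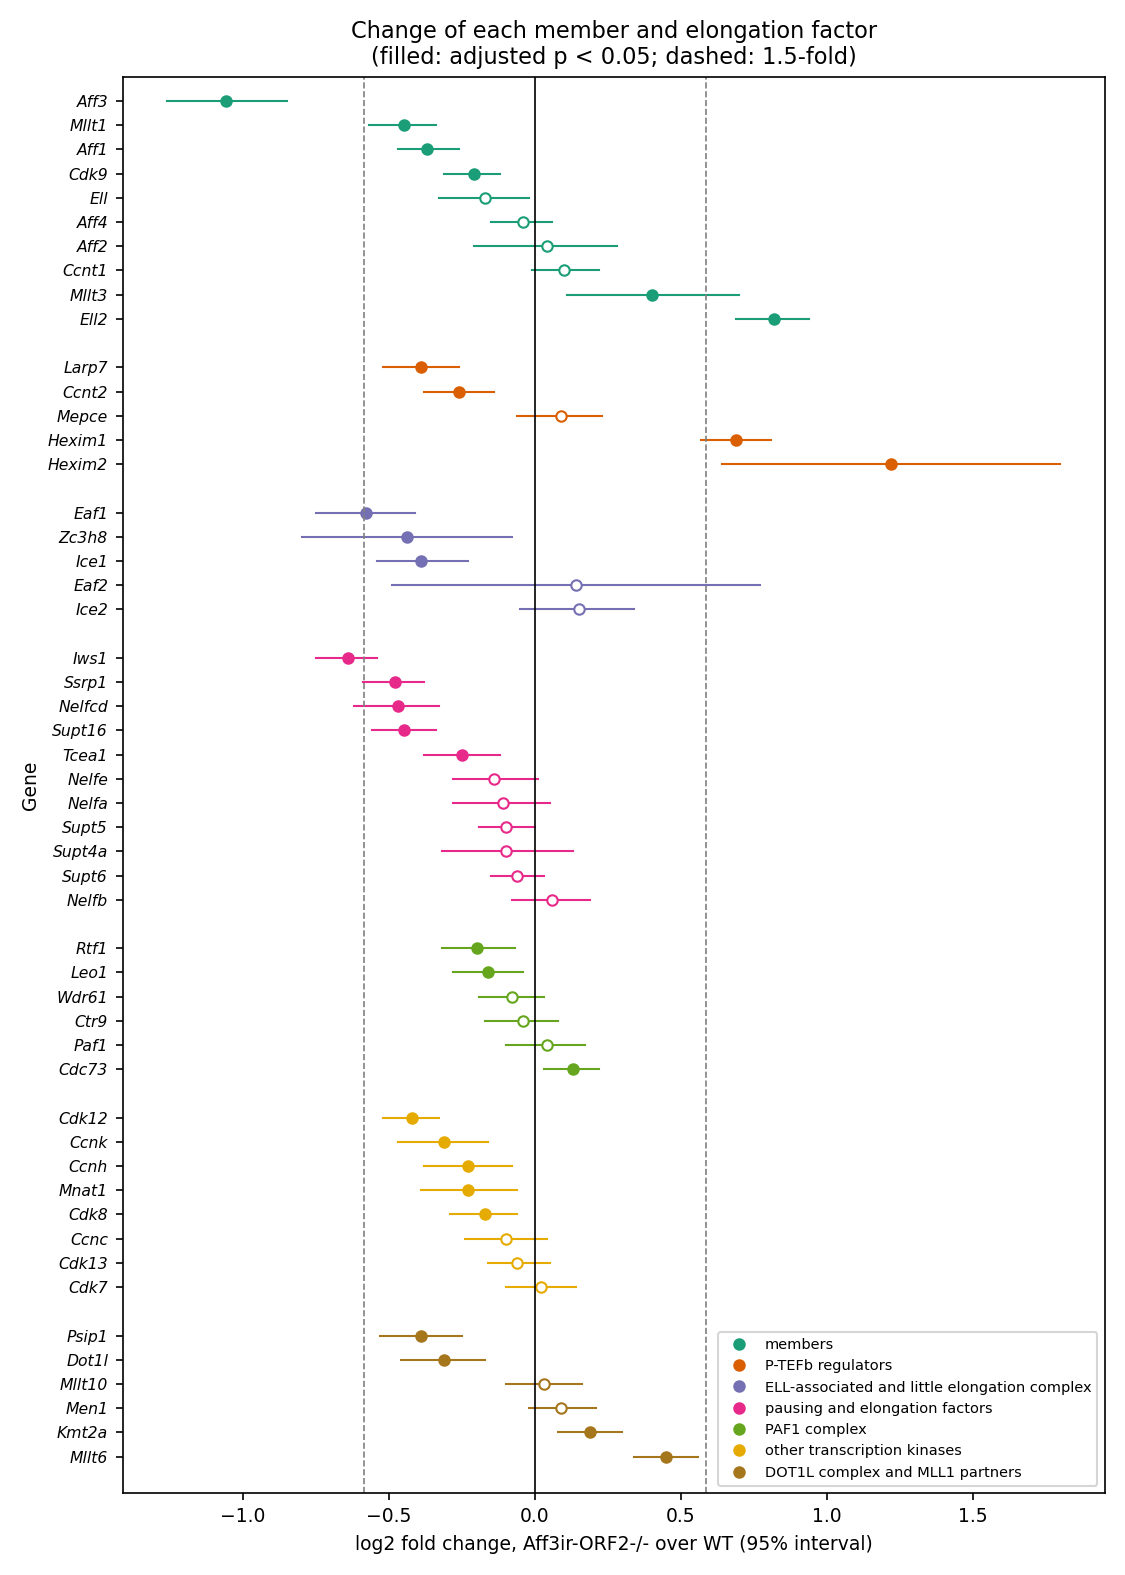
Log2 fold change (*Aff3ir-ORF2*-/- over WT) with its 95% interval for the members and for the tested genes of 6 other lists of elongation factors (1 gene is left out), sorted within each list, with filled points for an adjusted p under 0.05 and dashed lines at 1.5-fold. *Aff3*, at -1.06, is the lowest of the genes shown, and *Hexim2*, *Ell2*, *Hexim1* and *Iws1* are the others with a point beyond a dashed line.

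Ratios of counts between paralogs in the same library do not depend on how libraries are scaled, and 5 were computed. In each, the 3 *Aff3ir-ORF2*-/- libraries lay on one side of the 3 WT libraries. The log2 ratio of *Aff3* to *Aff4* was -4.08, -4.12 and -4.10 in WT and -5.00, -5.31 and -5.03 in the knockout, which differ by -1.02 on average. For *Ell2* to *Ell*, the elongation factors, the log2 ratios were 0.41, 0.68 and 0.61 in WT and 1.48, 1.68 and 1.49 in the knockout, which differ by 0.99 on average. This ratio of counts is not corrected for the lengths of the genes. The log2 ratio of *Mllt3* to *Mllt1* went from -2.39 ± 0.08 to -1.55 ± 0.26 (SD, n = 3 each), with *Aff3ir-ORF2*-/- library 3 the highest at -1.26. Smaller differences were found for *Aff1* to *Aff4*, from -0.56 ± 0.01 to -0.89 ± 0.06, and for *Ccnt2* to *Ccnt1*, the cyclin partners of CDK9, from -0.57 ± 0.03 to -0.93 ± 0.03. Each of the 5 gave p = 0.10 in an exact two-sided permutation test, which is the smallest p that 3 against 3 libraries allow, and 0.10 after adjustment over the 5. No ratio could therefore reach the threshold.

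Levels were compared between genes as counts per kb of the longest GENCODE M21 transcript, scaled to the same sum in every library. On this length-scaled level, the order in WT was *Aff4* (120 ± 2.10), *Aff1* (99.0 ± 2.54), *Cdk9* (75.6 ± 1.66), *Mllt1* (72.7 ± 3.52), *Ell* (30.4 ± 1.28), *Ell2* (26.9 ± 1.5), *Ccnt1* (23.7 ± 1.25), *Aff3* (11.8 ± 0.223), *Mllt3* (8.31 ± 0.101) and *Aff2* (5.83 ± 0.481) (SD, n = 3). Neighbours in this order were separated in every WT library except *Cdk9* and *Mllt1*, whose ranges overlapped. In *Aff3ir-ORF2*-/- MEFs the length-scaled level of *Ell2* (47.9 ± 2.09) was above that of *Ell* (27.2 ± 1.22), and *Aff3* (5.73 ± 0.576) came last, beside *Aff2* (6.05 ± 0.466), with which it overlapped. These places rest on the transcript length used. With the median length of the annotated transcripts, the WT level of *Ell2* was 89.3 and that of *Ell* 20.1, and *Aff3* in *Aff3ir-ORF2*-/- MEFs, at 11.0, was above *Aff2*, at 4.66.

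The make-up of each family was computed on the same length-scaled level. *Aff4* made up 50.8% ± 0.154 of the AFF total in WT and 57.0% ± 1.12 in *Aff3ir-ORF2*-/- MEFs, *Aff1* 41.8% ± 0.245 and 37.4% ± 0.802, and *Aff3* 4.97% ± 0.0807 and 2.76% ± 0.268 (SD, n = 3 each). *Aff3* was thus a small part of the scaffold RNA in both genotypes. The summed level of the AFF genes was 237 ± 4.86 in WT and 208 ± 7.61 in *Aff3ir-ORF2*-/- MEFs, with *Aff1* taking most of the difference. *Ell2* made up 46.8% ± 2.31 of the ELL total in WT and 63.6% ± 1.68 in *Aff3ir-ORF2*-/- MEFs, and the ELL sum was 57.5 ± 0.668 and 75.3 ± 1.85. Of ENL and AF9 RNA, the share of *Mllt3* was 10.3% ± 0.496 and 17.1% ± 2.59, while the sum was 81.0 ± 3.50 and 64.8 ± 2.41. The cyclin T sum hardly differed, at 39.2 ± 1.74 and 38.9 ± 0.372, although *Ccnt1* made up 60.5% ± 0.521 of it in WT and 66.3% ± 0.495 in *Aff3ir-ORF2*-/- MEFs. The sizes of these shares depend on the transcript lengths, which are the same for both genotypes.

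**Figure D3:**
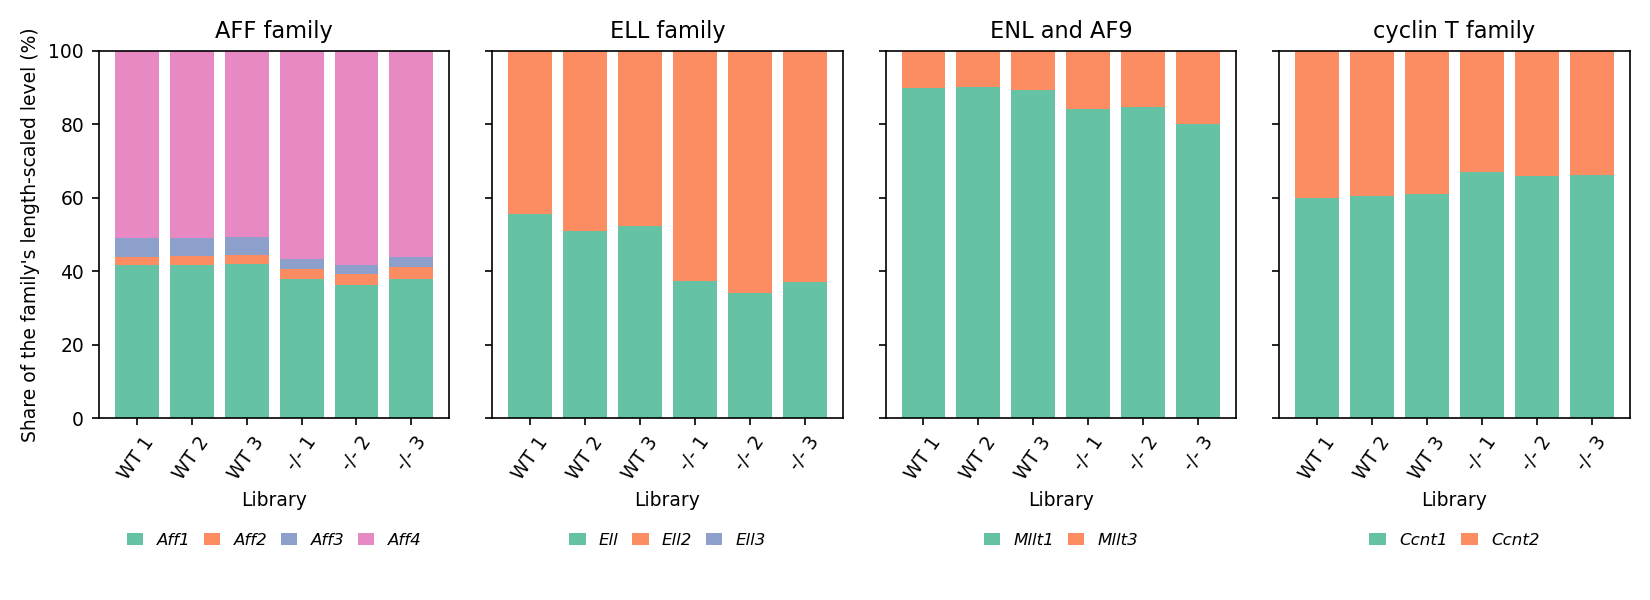
Share (%) of each family's summed length-scaled level taken by each gene in the 3 WT and the 3 *Aff3ir-ORF2*-/- (-/-) libraries, as stacked bars. *Ell2* takes 44.3% to 48.7% of the ELL total in WT and 62.6% to 65.6% in *Aff3ir-ORF2*-/- MEFs, and *Ell3* is too low to be seen.

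The other genes of the elongation machinery changed mostly by less than 1.5-fold. Of 43 genes in 6 lists 42 were tested, 2 were called higher and 1 lower, or 7.14% against 21.6% of all tested genes. At any fold, 5 rose and 19 fell, and 31 (73.8%) did not overlap between genotypes, against 66.0% of all tested genes. The 57.1% past the test was near the 56.9% of all tested genes, and 45.2% were lower, against 27.6%. The median log2 fold change was -0.11, as in the members. These are counts over genes that were not chosen at random, and nothing is read from them about the lists as such. The counts of each list below, at an adjusted p under 0.05, stand beside 29.4% higher and 27.6% lower over all tested genes.

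P-TEFb is held inactive by HEXIM proteins on the 7SK small nuclear RNA, and both HEXIM genes were called higher. *Hexim1*, the main inhibitor, had 431, 459 and 452 counts in WT and 766, 748 and 768 counts in *Aff3ir-ORF2*-/- MEFs, with no overlap and little spread within a genotype. Its log2 fold change was 0.69 with a standard error of 0.05 (adjusted p = 1.72e-05). *Hexim2*, its paralog, had 19, 22 and 23 counts against 42, 71 and 45 counts, a log2 fold change of 1.22 with a standard error of 0.26 (adjusted p = 0.00341). *Larp7*, which stabilises 7SK RNA, fell by 0.39 on the log2 scale (adjusted p = 0.000563), and *Ccnt2*, the other cyclin partner of CDK9, fell by 0.26 (adjusted p = 0.00270). Of the 6 tested genes of this list, 2 rose and 2 fell at an adjusted p under 0.05.

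Of 5 tested genes that bind ELL or belong to the little elongation complex, 3 fell and the others did not pass the test. *Eaf1*, an ELL-associated factor, had 3245, 3387 and 3402 counts in WT and 2478, 2091 and 2510 counts in *Aff3ir-ORF2*-/- MEFs, with *Aff3ir-ORF2*-/- library 2 the lowest. Its log2 fold change of -0.58 (adjusted p = 0.000215), 1.49-fold, lay just under the threshold for a call, and *Eaf1* was called without WT library 1 (-0.59) and without *Aff3ir-ORF2*-/- library 1 or 3 (-0.63 each). *Ice1*, the scaffold of the little elongation complex, fell by 0.39 on the log2 scale (adjusted p = 0.00138).

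Of 11 pausing and elongation factors, 5 fell and the others did not pass the test. *Iws1*, a partner of the histone chaperone SPT6, was called lower, with 1694, 1757 and 1870 counts in WT and 1182, 1200 and 1211 counts in *Aff3ir-ORF2*-/- MEFs (log2 fold change -0.64, standard error 0.05, adjusted p = 1.31e-05). *Ssrp1*, a subunit of the FACT histone chaperone, fell by 0.48 (adjusted p = 5.45e-05). *Supt6*, which encodes SPT6 itself, gave -0.06 (adjusted p = 0.241). In the PAF1 complex, 1 of 6 genes rose and 2 fell, with *Cdc73* at 0.13 (adjusted p = 0.0301) and *Ctr9* at -0.04 (adjusted p = 0.508). Among 8 genes of other transcription kinases, 5 fell and the others did not pass. *Cdk12*, a kinase of the polymerase tail, fell by 0.42 (adjusted p = 5.46e-05), and its paralog *Cdk13* gave -0.06 (adjusted p = 0.317). Of 6 genes of the DOT1L complex and MLL1 partners, 2 rose and 2 fell. *Kmt2a*, which encodes MLL1, rose by 0.19 (adjusted p = 0.00936), and *Dot1l*, the H3K79 methyltransferase, fell by 0.31 (adjusted p = 0.00308).

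The 6 listed rapid-response genes, whose induction is tied to the complex, all passed both thresholds, in both directions. *Egr1*, an immediate-early transcription factor, had 6445, 6662 and 5595 counts in WT and 846, 800 and 1018 counts in *Aff3ir-ORF2*-/- MEFs, which is 7.41-fold lower (log2 fold change -2.89, adjusted p = 5.26e-07). *Myc* fell by 1.32 on the log2 scale, *Fos* by 1.20 and *Jun* by 1.03. The heat shock genes *Hspa1a* and *Hspa1b* rose, each by 0.86, and as near-identical copies they may share reads. Of the 6 genes, 4 were thus called lower and 2 higher, against 7.32% and 14.3% of all tested genes. The 6 were not chosen at random but with earlier results of these data known. Nothing is read from their count about the complex. The macrophage markers differed between the same libraries, and their part in these values was not tested.

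The tested genes beside *Aff3* on its chromosome had smaller differences than *Aff3*. Of the 5 nearest on each side, in the RefSeq gene order of GRCm38.p6, 0 of 10 were called by edgeR or by the DESeq2 Wald test. In the edgeR fit none of the 10 reached 1.5-fold, and *Npas2*, at -0.47, had the largest difference. The fold threshold alone therefore left 0 calls, and an unadjusted p in place of the adjusted one could not add any. At any fold, 3 passed an adjusted p under 0.05. Over all tested genes 21.6% were called and 56.9% passed the adjusted p, so both counts lay below those shares. *Mitd1*, an abscission factor, rose by 0.39 (adjusted p = 0.00982). *Txndc9*, a thioredoxin-like chaperone cofactor, fell by 0.16 (adjusted p = 0.0191), and *Rpl31*, a ribosomal protein gene, by 0.19 (adjusted p = 0.00448). *Rev1*, a translesion polymerase gene and the nearest on one side, gave 0.05 (95% interval -0.08 to 0.19), and *Lonrf2*, the nearest on the other, gave 0.25 with a wide interval (-0.60 to 1.09). The remaining genes were *Mrpl30* (-0.07), *Eif5b* (0.11), *Chst10* (0.06), *Pdcl3* (-0.07) and *Npas2* (-0.47, adjusted p = 0.0663). *Npas2*, a circadian transcription factor with 30 to 49 counts per library, was called without *Aff3ir-ORF2*-/- library 2 (-0.65, adjusted p = 0.0198). The median of the 10 was -0.01, and the interval of *Aff3*, -1.26 to -0.85, overlaps that of *Npas2* (-0.92 to -0.03) and none of the others.

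**Figure D4:**
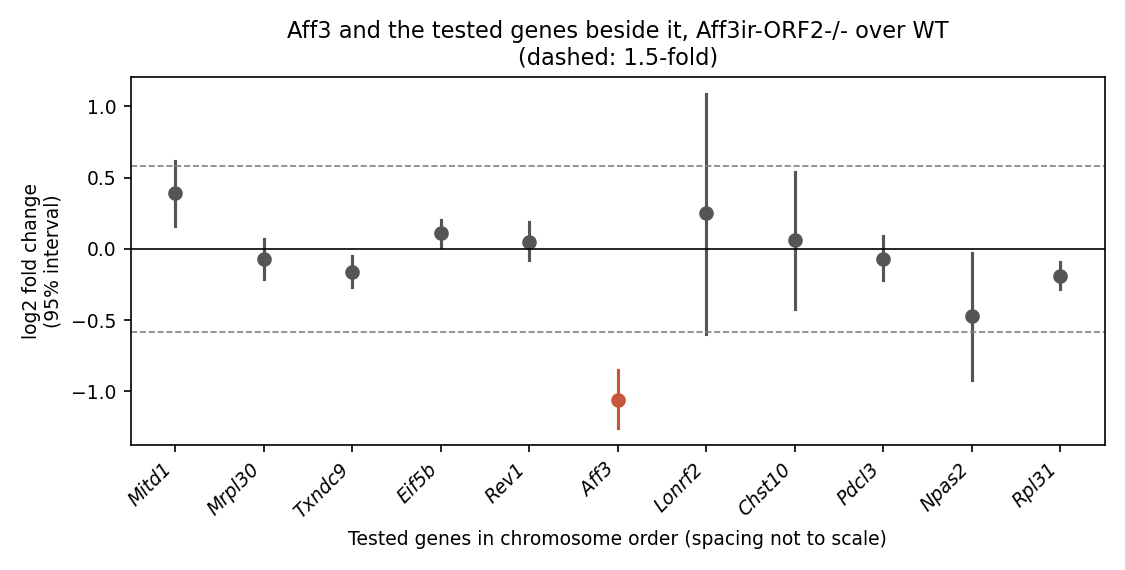
Log2 fold change (*Aff3ir-ORF2*-/- over WT) with its 95% interval for *Aff3* (red) and the 5 nearest tested genes on each side (grey), in chromosome order with even spacing, and dashed lines at 1.5-fold. *Aff3*, at -1.06, is the only point beyond a dashed line.

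Across the 6 libraries, the profiles most like that of *Aff3* belonged to none of its family. Likeness was the root mean square difference of log2 CPM after setting each gene's WT mean to 0, over 11699 genes with a mean log2 CPM above 1. The closest were *C530008M17Rik* (0.0342), *Pole2* (0.0496), *Pask* (0.0560), *Nasp* (0.0627) and *Cfap69* (0.0702), and their lower level in *Aff3ir-ORF2*-/- MEFs follows from how they were chosen. *Pole2* encodes a subunit of DNA polymerase epsilon, *Pask* a PAS-domain kinase and *Nasp* a histone chaperone. Of the members, *Mllt1* came closest at 0.437, in place 1221, followed by *Aff1* at 0.489, in place 1659. *Ell2* was the farthest at 1.33, in place 10761. The places of the members restate their fold changes, and the ranking describes these libraries only, since 6 libraries in 2 groups give few independent points.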

How the data were processed

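MEFs of WT and *Aff3ir-ORF2*-/- mice were sequenced by a company (paired-end, DNBSEQ), and per the study's methods the reads were filtered with SOAPnuke. The values the authors deposited are estimated counts without normalization, in a single table with NCBI Gene IDs and symbols. The aligner, counter, annotation and strand setting are not given in the sources used here, and the submitters' processing notes name the build mm8 without its role. Estimated counts were rounded to whole numbers.

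Genes with enough counts (edgeR filterByExpr, minimum 10 counts, minimum total 15) were kept, scaled by TMM and tested with the edgeR 4.0.16 quasi-likelihood test (R 4.3.3) in all 6 libraries, genotype being the only term. A gene was called at an adjusted p under 0.05 and at least 1.5-fold. The prior count for log2 CPM was 2. Ratios of paralogs used counts plus 0.5. The edgeR fit was tested on simulated counts, and the other steps were not. Of the 17092 gene IDs, 17043 were in the RefSeq gene table (GRCm38.p6), used for names and neighbours only, and 16558 had a GENCODE M21 length.

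Members, lists and tests were chosen with earlier results of these data known. Named genes were all members, genes of the other lists that passed both thresholds, the 2 with the most counts per list, 5 neighbours of *Aff3* on each side and the 5 genes most like it. *Ccnt2* was named for the cyclin ratio, and *Ell3* because it was not tested. Alternatives were DESeq2 1.42.0 size factors and Wald test, upper quartile and total count scaling, other filters, limma 3.58.1 voom, a replicate block, leaving out each library, and other thresholds. A robust dispersion was added after the data were seen. Intervals are 95% intervals of the fit and, like all counts here, cannot separate cell types. Comparison of the proteins was not done. The values of 1 gene of the elongation lists, which is counted in them, are not reported here.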

Additional observations from a re-analysis of the deposited data

How the results depend on the processing

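*Aff3*, *Ell2*, *Aff1*, *Mllt1* and *Cdk9* kept their direction and stayed past the adjusted p under all 15 alternative fits that test for any change, with log2 fold changes of -1.14 to -0.98, 0.78 to 0.85, -0.41 to -0.33, -0.50 to -0.42 and -0.23 to -0.17. The test against a 1.5-fold change is not among these 15, and it called 1 member higher and 1 lower. With a fold threshold of 2 in place of 1.5, 0 members were called higher. *Aff2* ranged from -0.03 to 0.10 when libraries were left out in turn and turned negative without WT library 1 (-0.0030) and without *Aff3ir-ORF2*-/- library 3 (-0.0279). In the other elongation lists 1 gene was called higher in a test against a 1.5-fold change and at 2-fold, and 0 were called lower in both. The genes called lower there were 2, *Iws1* and *Eaf1*, without the filter on low counts, with voom quality weights per genotype and with the replicate block, and 1 to 2 when libraries were left out in turn (2 without WT library 1 and without *Aff3ir-ORF2*-/- library 1 or 3). Of the neighbours of *Aff3*, 0 to 1 were called when libraries were left out in turn (*Npas2*, without *Aff3ir-ORF2*-/- library 2). Of 107 counts under alternatives, 95 stayed within 1.5 times the main count. Over all genes the test against a 1.5-fold change called 1080 higher and 413 lower, against 1865 and 957. Libraries of the same replicate number showed no clear sign of pairing (correlations of deviations 0.04, 0.04 and 0.01). These correlations cannot exclude pairing, since the WT libraries differed little among themselves (common biological coefficient of variation 0.0185). The replicate block gave 1870 higher and 975 lower. With 3 libraries per genotype the exact test of a ratio cannot go below 0.10, and members with few counts, such as *Aff2* at 142 to 179 counts per library, have wide intervals.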
